A study of Homo sapiens with 6 samples.

Results

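Complement components and complement regulators were followed in spheroids and monolayers of NCI-H226, an established human mesothelioma cell line. The 9 genes, of 19775 read by the array, were chosen by gene symbol, and all probe sets annotated to them were kept, 20 of the 54613 that were tested on an Affymetrix Human Genome U133 Plus 2.0 array. The activating components C3, CFB, C1R and C1S have 6 of them, the membrane regulators CD46, CD55 and CD59 have 11, and the fluid regulators CFI and SERPING1 have 3. Spheroids grew for 24 hours from 10000 cells each in wells coated with poly-HEMA, a polymer that stops attachment, without added matrix. Monolayers were adherent cultures of the same line. Their time in culture before RNA was taken and the medium of the spheroids are not given in the sources used here. Each group has 3 cultures labelled as biological replicates, with 1 array per culture. The study's text describes the spheroid RNA as coming from separate experiments. All results describe a single cell line and spheroids of a single age. The deposited values are MAS5 signal intensities on a linear scale. For comparisons each value was put on the log2 scale and the median of its array subtracted. Log2 fold changes are spheroids minus monolayers. The p values come from limma, a linear model fitted to every tested probe set, with Benjamini-Hochberg adjustment over the whole array and a threshold of 0.05. In RNA from whole cultures, fewer cells expressing a gene and less RNA per cell cannot be told apart.

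Complement is a cascade of blood and tissue proteins that marks cells and microbes for removal. The serine proteases C1R and C1S start its classical pathway inside the C1 complex, C3 is the central protein whose cleavage every pathway shares, and CFB (factor B) carries the protease of the alternative pathway C3 convertase. Host cells hold the cascade back with the membrane proteins CD46, CD55 and CD59 and with the secreted proteins CFI (factor I) and SERPING1 (C1 inhibitor). The liver makes most of the plasma pool, and many epithelial, mesothelial and stromal cells make complement proteins locally under inflammatory cytokines.

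The median signal of an array was 15.1 to 18.0 in spheroids and 14.6 to 14.7 in monolayers, and centring moved the median log2 fold change of all probe sets to -0.07, against 0.07 as deposited. Of the mesothelioma markers, 7 were measured and all lay above the array median in at least 1 group. Their summed signal was 6447 to 9116 in spheroids and 2669 to 8617 in monolayers, and 1 of the 7, PDPN, passed limma (higher in spheroids). Leukocyte, hepatocyte and endothelial marker lists gave 0 calls each by limma among 6, 5 and 5 genes, with 2, 0 and 1 at an unadjusted p under 0.05 and 0, 0 and 0 by the methods' t-test. Of 5 fibroblast markers PDGFRA passed. RNA integrity was read from the 3' over 5' probe set ratios of ACTB and GAPDH. For ACTB the ratio was 1.17 ± 0.0603 in spheroids and 1.09 ± 0.0123 in monolayers (SD, n = 3 each). A two-sided exact permutation test gave p = 0.1, which is as low as groups of 3 can reach, and adjusted p = 0.2 over 2 controls. For GAPDH the ratio was 0.901 ± 0.0121 in spheroids and 0.894 ± 0.0174 in monolayers, with p = 0.6 and adjusted p = 0.6 by the same permutation test.

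CFB had the promoter with the most matches among the 6 members whose start regions are in the RefSeq table of GRCh38.p14 (11 entries for the 6). C3, C1S and SERPING1 have no entry there and were not searched, so CFB was not compared with the other called members. The 250 bases before each start were searched on both strands for 6 motifs of cytokine-driven transcription: the kappaB motif of NF-kB, the interferon-stimulated response element ISRE, the STAT motif GAS (TTCNNNGAA), a C/EBP motif (TTNNNCAA), the AP-1 motif and the cAMP response element CRE (TGACGTCA). Over all 35116 entries of the same length, 9.96% held the kappaB motif, 3.02% ISRE, 6.57% GAS, 30.2% C/EBP, 4.2% AP-1 and 1.65% CRE. CFB held ISRE 140 bases, kappaB 112 bases, GAS 92 bases and C/EBP 33 bases before its start. The first 3 lie inside the 100 bases shown here, chosen because CFB had the largest fold change of the members. A GAS match also stood before a C1R start, and another before 2 of the 4 CD59 starts, which share it. These stretches are shown beside CFB because they hold the same motif in a gene with a positive log2 fold change that did not pass and in a gene with one close to 0. Capitals mark ISRE (read on the other strand), kappaB and GAS in CFB and GAS in the other 2. A match is a string of letters and not a measured binding site.
CFB, chr6:31945935-31946034, plus strand, 160 to 61 bases before the start: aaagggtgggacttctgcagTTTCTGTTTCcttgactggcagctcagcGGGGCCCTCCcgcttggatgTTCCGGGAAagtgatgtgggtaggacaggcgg
C1R, chr12:7091944-7092013, minus strand, 120 to 51 bases before the start: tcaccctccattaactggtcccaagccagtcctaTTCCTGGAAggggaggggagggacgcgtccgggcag
CD59, chr11:33736570-33736639, minus strand, 160 to 91 bases before the start: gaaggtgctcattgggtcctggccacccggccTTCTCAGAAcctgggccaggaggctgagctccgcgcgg
The C/EBP motif also occurred before both C1R starts and before a further CD59 start, and the AP-1 motif before the remaining CD59 start. None of the 6 motifs matched in the 250 bases before the starts of CD46, CD55 and CFI.

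Of the 4 activating components, 3 were higher in spheroids, and no member probe set was called lower. Of the 20 probe sets 4 passed limma, all upward, and they belong to C3, CFB and C1S. Over all tested probe sets 2.79% were called higher in spheroids, 6.63% lower and 9.42% in either direction, and among those above the median level 4.95% were higher and 17.6% were called in all. By role, 4 of 6 probe sets of the activating components, 0 of 11 of the membrane regulators and 0 of 3 of the fluid regulators passed. Before adjustment, 5, 3 and 0 had a limma p under 0.05 (22.5% of all probe sets did). The methods' t-test, run here on centred log2 values, gave 0, 0 and 0 after adjustment, where 2.27% of all probe sets passed. Without adjustment 4 of the 20 passed it, where 19.6% of all probe sets did. Limma without its mean-variance trend called 0 of the 20 and 0.829% of all probe sets. By gene, 3 of 9 passed, against 13.1% of 19775 genes. With 1 probe set per gene, that of the highest mean level, the median log2 fold change was 1.51 for the 4 activating components, 0.30 for the 3 membrane regulators and 0.85 for the 2 fluid regulators, beside -0.07 over all probe sets. The members are not replicates, so the difference between roles was not tested.

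**Figure D1:**
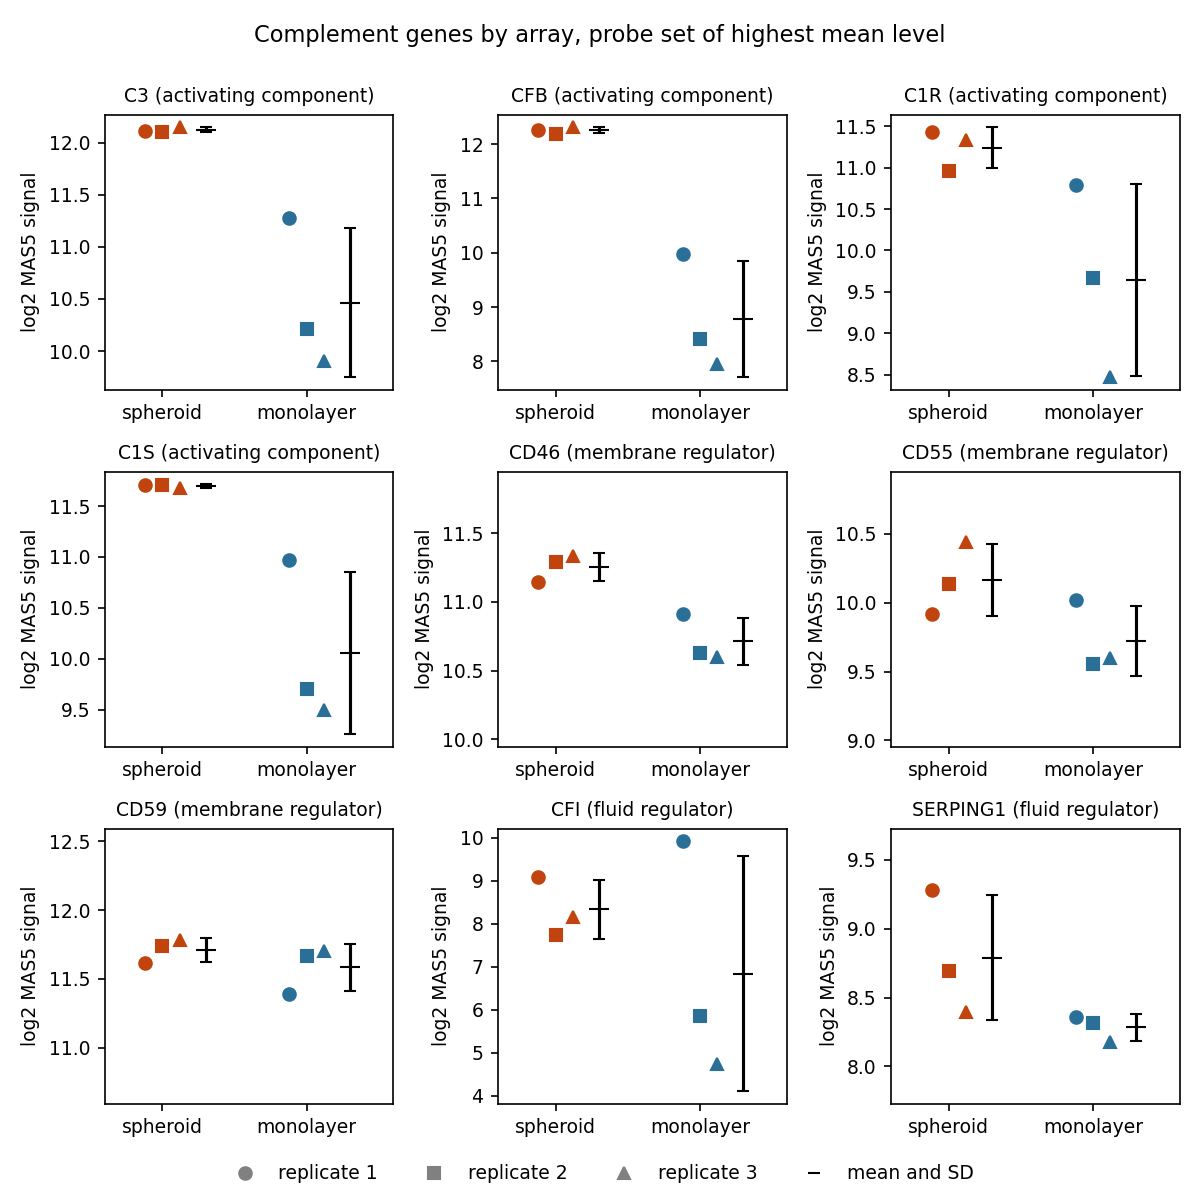
Log2 MAS5 signal as deposited of the 9 members, each at its probe set of highest mean level, with spheroids left and monolayers right in every panel. Points are single arrays, with the marker giving the replicate number, and bars are mean and SD of 3 arrays; C3, CFB and C1S show 3 spheroids close together above 3 scattered monolayers, and CD59 overlaps between groups.

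CFB, the protease subunit of the alternative pathway convertase, had the largest change. Its probe set 202357_s_at read 4926, 4682 and 5068 in spheroids and 1013, 339 and 247 in monolayers. All 3 spheroids lay far above all 3 monolayers, and monolayer 1 was the highest monolayer. The log2 fold change was 3.33 (standard error 0.43, 95% interval 2.36 to 4.31, limma adjusted p = 0.00233), a 10.1-fold difference. The call held without any single array, with adjusted p between 2.07e-05 and 0.0183. It did not hold without the trend (adjusted p = 0.0602) or by the methods' t-test (adjusted p = 0.0941). The second CFB probe set, 211920_at, was dim at 9.76, 5.60 and 13.4 in spheroids and 1.40, 7.24 and 1.54 in monolayers, and its log2 fold change of 1.71 did not pass (standard error 0.78, limma adjusted p = 0.236). Its values lie below the median signal of the arrays, where signal over background is not known.

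C3, the protein at which all activation routes meet, is read by 1 probe set, 217767_at. It read 4445, 4407 and 4552 in spheroids and 2478, 1189 and 961 in monolayers. The spheroids were nearly level, the groups did not overlap, and monolayer 1 stood apart from the other 2. C3 was 2.86-fold higher in spheroids (log2 fold change 1.51, standard error 0.30, 95% interval 0.83 to 2.20, limma adjusted p = 0.0159). The call rested on every array but 1. Without any one of spheroids 1, 2 and 3 and monolayers 2 and 3 the adjusted p was 0.0530 to 0.0719, and without monolayer 1 it was 2.94e-04 with a log2 fold change of 1.92.

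C1S and C1R are the paired proteases of C1, where active C1R cleaves C1S and C1S cleaves C4 and C2. C1S at 208747_s_at read 3349, 3344 and 3274 in spheroids and 2005, 835 and 721 in monolayers. This was the C3 pattern again, with level spheroids and a high monolayer 1. The log2 fold change was 1.50 (standard error 0.33, limma adjusted p = 0.0233). At the second C1S probe set, 1555229_a_at, spheroids read 270.2, 171 and 231 and monolayers 117, 27.3 and 13.1 (log2 fold change 2.52, standard error 0.66, limma adjusted p = 0.0460). Both probe sets thus gave non-overlapping groups. Neither passed without any one of spheroids 1, 2 and 3 and monolayers 2 and 3, with adjusted p of 0.0728 to 0.0954 at the first and 0.105 to 0.147 at the second, and both passed without monolayer 1 (1.69e-04 and 4.71e-04, log2 fold changes 1.95 and 3.40).

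C1R, read by 212067_s_at alone, had 2767, 1992 and 2572 in spheroids and 1770, 816 and 355 in monolayers. As deposited the groups did not overlap, but after centring spheroid 2 fell below monolayer 1. Its log2 fold change of 1.45 was close to those of C3 and C1S, with a larger standard error of 0.48, and did not pass (95% interval 0.36 to 2.54, limma adjusted p = 0.102). Without monolayer 1 it was 2.03 and passed (adjusted p = 0.00395), and without monolayer 3 it was 0.86 (adjusted p = 0.209).

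With each gene at its probe set of highest mean level, C3 followed C1S, CFB and C1R across the 6 arrays with Pearson correlations of 0.997, 0.989 and 0.947, and C1R followed C1S with 0.944. These describe 6 points in 2 groups on the same arrays, so a shared difference between the groups alone raises them. In the RefSeq annotation of GRCh38.p14 C1S and C1R are neighbours on chromosome 12, with C1RL next to C1R. The other members have no member beside them.

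**Figure D2:**
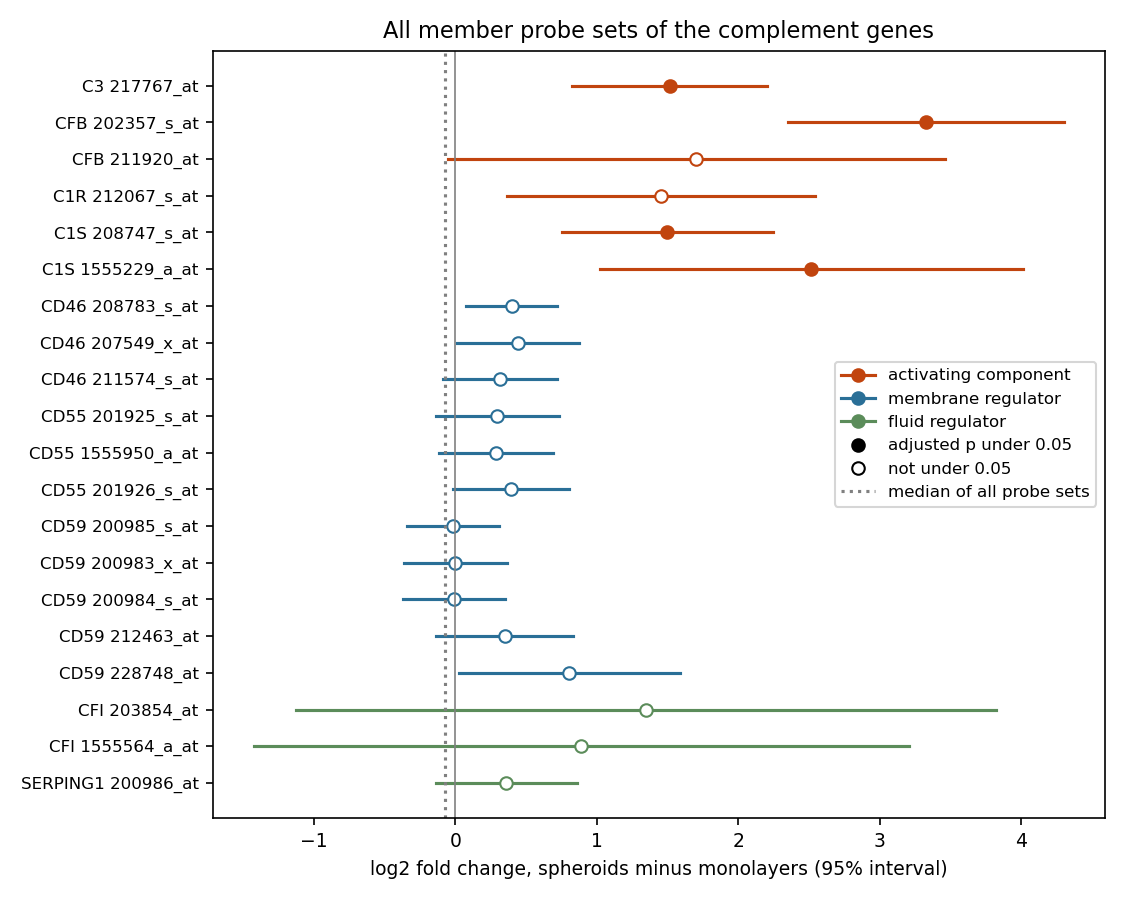
Log2 fold change of all 20 member probe sets, spheroids minus monolayers, with 95% intervals from limma; colours give the role, filled points passed the adjusted test, and the dotted line is the median of all tested probe sets (-0.07). The filled points all belong to C3, CFB and C1S, and no CD46, CD55 or CD59 probe set passed, the largest of their log2 fold changes being 0.80 (95% interval 0.02 to 1.59) at a dim CD59 probe set.

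No probe set of a membrane regulator passed the test. CD46, a cofactor with which CFI cleaves C3b, read 2258, 2503 and 2574 in spheroids and 1922, 1582 and 1551 in monolayers at 208783_s_at. All spheroids were above all monolayers, as at the other 2 CD46 probe sets, but the step was small. At 211574_s_at the lowest spheroid and the highest monolayer were almost level after centring, at 2.7371 and 2.7369. The log2 fold changes at the 3 probe sets were 0.40, 0.44 and 0.32 (standard errors 0.14, 0.19 and 0.18; adjusted p = 0.132, 0.212 and 0.352 by limma). Over all probe sets 10.2% had every spheroid above every monolayer after centring, 17.6% had every spheroid below and 27.8% had either, and 7 of the 20 member probe sets had every spheroid above. The first CD46 probe set passed on the values as deposited (log2 fold change 0.54, adjusted p = 0.0168) and after quantile normalization (0.49, adjusted p = 0.0246), so its call depended on the scaling.

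CD55, which speeds the decay of C3 convertases, read 966, 1127 and 1391 in spheroids and 1037, 751 and 774 in monolayers at 201925_s_at. Spheroid 1 lay below monolayer 1, so the groups overlapped. The log2 fold change was 0.30 (standard error 0.19, 95% interval -0.14 to 0.73, limma adjusted p = 0.428). The other 2 CD55 probe sets had 0.29 and 0.39 (adjusted p = 0.399 and 0.247 by limma).

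CD59, which stops the membrane attack complex from forming a pore, read 3131, 3416 and 3523 in spheroids and 2678, 3248 and 3327 in monolayers at 200985_s_at. The ranges overlapped and the log2 fold change was -0.02 with a 95% interval of -0.35 to 0.31 (limma adjusted p = 0.965), an interval that lies below the log2 fold change of C3. Its sign turned with the scaling, at 0.13 as deposited. Probe sets 200983_x_at and 200984_s_at gave 0.00 and -0.01. The dimmer CD59 probe sets 212463_at and 228748_at gave 0.35 and 0.80 (95% intervals -0.14 to 0.83 and 0.02 to 1.59) and did not pass (adjusted p = 0.401 and 0.209 by limma), so the probe sets of CD59 did not read alike.

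The fluid regulators showed the widest and the narrowest monolayers. CFI, the protease that inactivates C3b and C4b, read 543, 215 and 287 in spheroids and 973, 58.3 and 26.6 in monolayers at 203854_at. Monolayer 1 was the highest of all 6 arrays and the other monolayers the lowest. At the second probe set, 1555564_a_at, spheroids read 213, 91.7 and 89.4 and monolayers 415, 34.7 and 14.1, again with monolayer 1 highest and the other monolayers lowest. The spheroids spanned 1.55 on the log2 scale at the first probe set and the monolayers 5.20. The fitted log2 fold changes were 1.35 and 0.89 (standard errors 1.10 and 1.03; adjusted p = 0.543 and 0.689 by limma), with a 95% interval of -1.13 to 3.83 at the first. Without monolayer 1 both passed (log2 fold changes 2.89 and 2.30, adjusted p = 0.00271 and 0.0114), while without monolayer 3 the values were 0.29 and -0.14. The spheroid mean minus monolayer 1 was -1.74 on the log2 scale at the first probe set.

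SERPING1, the inhibitor that removes C1R and C1S from C1, read 623, 414.5 and 336 in spheroids and 329, 319 and 289 in monolayers at 200986_at. Here the monolayers were close together and spheroid 1 was the outlying array. The log2 fold change was 0.36 (standard error 0.22, 95% interval -0.14 to 0.86, limma adjusted p = 0.395), and without spheroid 1 it was 0.09. As deposited every spheroid was above every monolayer, which held for 11 of the 20 member probe sets and 15.7% of all probe sets, and after centring the groups overlapped.

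Monolayer 1 stood above monolayers 2 and 3 in most of these genes. It was the highest monolayer at 13 of the 20 member probe sets, where 36.2% of all probe sets had it highest, and in 8 of the 9 genes at their brightest probe set. It was lowest at 5 of 5 CD59 probe sets and at the dim CFB probe set. It exceeded the mean of the other 2 by over 1 on the log2 scale at 7 of the 20 probe sets, which belong to C3, CFB, C1R, C1S and CFI, against 11.2% of all probe sets and 4.2% of those above the median level. The excess was 1.22 for C3, 1.81 for CFB, 1.72 for C1R, 1.37 for C1S and 4.63 for CFI. An excess of 4.63 or more occurred at 0.0494% of all probe sets. For CD46, CD55 and SERPING1 the excess was 0.30, 0.45 and 0.12. The difference of the spheroids from monolayer 1 was 2.12 for CFB, 0.70 for C3, 0.58 for C1S and 0.31 for C1R on the log2 scale, and from the mean of monolayers 2 and 3 it was 3.93, 1.92, 1.95 and 2.03. The spheroid mean of all 4 activating components was thus above both readings of the monolayers, by amounts that depended on that array.
The same array stood apart in mesothelial markers, in single markers of other cell types and in cytokines. KRT5, a keratin of mesothelioma, read 910.5, 267 and 290 in spheroids and 1845, 130 and 79.3 in monolayers. CALB2 (calretinin) read 2238.5, 1317 and 1765 in spheroids and 1582, 163 and 83.6 in monolayers. IL1B ran the other way, with 3317, 4413 and 4627 in spheroids and 466, 2754 and 3060 in monolayers. On the log2 scale monolayer 1 minus the mean of monolayers 2 and 3 was 4.19 for KRT5 and 3.76 for CALB2, in the direction of the complement genes, and -2.64 for IL1B, -2.95 for IL1A and -1.25 for IL6, in the opposite one. Markers of other cell types that were high in monolayer 1 were COL3A1 of fibroblasts (5.81), KDR of endothelium (5.31) and APOA1 of hepatocytes (2.43), while LUM of fibroblasts (-2.71) and ALB of hepatocytes (-2.64) were low in it. COL3A1 read 24.8, 1.84 and 5.18 in spheroids and 313, 4.67 and 6.67 in monolayers, and KDR read 61.2, 14.4 and 32.9 in spheroids and 422, 13.6 and 8.35 in monolayers. Spheroid 1 differed from the mean of spheroids 2 and 3 in the same direction as monolayer 1 in each of these genes. On the log2 scale it did so by 1.80 for KRT5, 0.64 for CALB2, 3.09 for COL3A1, 1.58 for KDR and 2.23 for APOA1. The differences were -0.36 for IL1B, -0.37 for IL1A, -1.40 for IL6, -0.93 for LUM and -0.44 for ALB. Whether the replicate 1 cultures share a source of this was not tested. The part of these genes' cells or signals in the complement differences was not tested. Without monolayer 1, 7 of the 20 member probe sets passed limma, all higher in spheroids, where 12% of all probe sets passed and 4.15% were higher. The 7 are the 4 above, C1R and both CFI probe sets. Without replicate 1 of both groups 8 passed, beside 12.1% of all probe sets, and the eighth was the dim CD59 probe set 228748_at (log2 fold change 0.69, limma adjusted p = 0.0294). Without any one of the other arrays, 1 passed, the first CFB probe set.

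**Figure D3:**
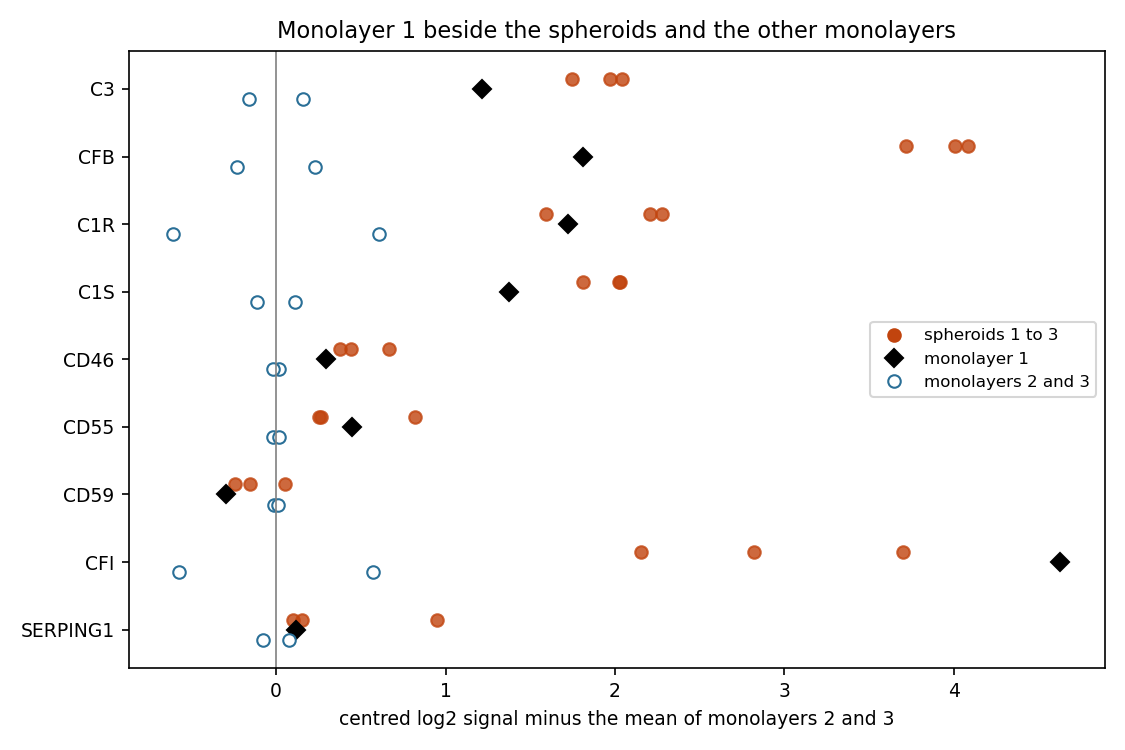
Centred log2 signal of each array relative to the mean of monolayers 2 and 3, for the 9 members at their probe set of highest mean level; orange points are spheroids, black diamonds monolayer 1 and open circles monolayers 2 and 3. Monolayer 1 lies to the right by 1.22 to 4.63 for C3, CFB, C1R, C1S and CFI, beyond all spheroids for CFI, and to the left of 0 for CD59.

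The spheroid signals of C3, CFB and C1S were close to the top of the scale. They lay on average at the 99.5th, 99.7th and 98.9th percentile of their arrays, whose highest signals were 7059 to 7257 in spheroids and 6051 to 6607 in monolayers. Among spheroids these genes varied by 0.30, 0.36 and 0.22 on the log2 scale from the lowest to the highest array, and among monolayers by 1.37, 2.04 and 1.48. Whether the scanner or the algorithm compresses signals at that height was not tested.

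The rest of the complement system changed in single genes. Of a list of 50 further complement genes, 43 are read by a probe set of their own, with 3 higher, 3 lower and 37 not past limma at their brightest probe set. Over 19775 genes read in this way 3.89% were higher and 9.2% lower. C4A, C4B and VTN are read only by probe sets shared with other genes, and 4 more genes of the list are not analysed here. The median log2 fold change of the 43 was 0.14.

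C1RL, a C1R-like protease whose gene lies next to C1R, had the lowest adjusted p of the complement genes. It read 914, 987 and 919 in spheroids and 256, 199 and 167 in monolayers. The groups were far apart. Spheroids spanned 0.15 on the log2 scale and monolayers 0.62, with monolayer 1 highest, at 0.49 above the mean of monolayers 2 and 3. The log2 fold change was 2.06 (standard error 0.17, limma adjusted p = 5.52e-04), and it passed without any single array, in limma without the trend and in the methods' t-test (adjusted p = 0.0390). It was the single one of the 13 recognition proteins and early proteases to pass. The C1q chains C1QA, C1QB and C1QC, which bind antibody and start the classical pathway, read 6.08, 10.3 and 4.28 on average in spheroids and 8.64, 5.91 and 4.24 in monolayers, below the array medians. COLEC10, a collectin of the lectin pathway, had a log2 fold change of -0.38 (limma adjusted p = 0.383).

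Of the 4 measured convertase and alternative pathway genes, CFD was lower and the others did not pass. CFD (factor D), the protease that activates CFB, read 77.4, 83.8 and 70.3 in spheroids and 108, 173 and 140 in monolayers. All spheroids were below all monolayers, opposite to its substrate CFB. CFD fell by 0.98 (log2; standard error 0.20, limma adjusted p = 0.0159), and it did not pass without any one of spheroids 2 and 3 and monolayers 2 and 3 (adjusted p 0.0623 to 0.0707). C2, the classical pathway counterpart of CFB, read 29.5 on average in spheroids and 27.3 in monolayers (log2 fold change -0.11, standard error 0.46, limma adjusted p = 0.926). None of the 6 terminal pathway genes C6, C7, C8A, C8B, C8G and C9 passed limma, at an unadjusted p under 0.05 or by the methods' t-test, and all 6 averaged below the array median in both groups.

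Among 10 measured regulators outside the 9 members, C4BPB and C1QBP were lower. C4BPB, the beta chain of C4b-binding protein, read 58.9, 40.5 and 58.0 in spheroids and 321, 248 and 232 in monolayers. Every spheroid was far below every monolayer. C4BPB fell by 2.50 (log2; standard error 0.24, limma adjusted p = 7.95e-04). It passed without any single array, in limma without the trend and in the methods' t-test. C4BPB and CFB are among the genes the study selected on these arrays, so their calls are not independent of that choice. The alpha chain C4BPA was dim in both groups, at 6.37 in spheroids and 7.95 in monolayers on average. C1QBP, a mitochondrial protein that also binds C1q, averaged 2823 ± 245 in spheroids and 3813 ± 234 in monolayers (SD, n = 3 each; log2 fold change -0.58, limma adjusted p = 0.0439), and its call ended without every array but spheroid 3. CLU (clusterin), a chaperone that binds the terminal complex, had a log2 fold change of 0.22 (95% interval -0.35 to 0.79), and CFHR2 one of 0.36 (limma adjusted p = 0.586).
Of 10 receptors, C3AR1 and ITGAX were higher. C3AR1, the receptor of the C3a fragment, read 52.2, 69.8 and 64.8 in spheroids and 14.2, 18.0 and 22.7 in monolayers (log2 fold change 1.64, standard error 0.27, limma adjusted p = 0.00605). It passed without any single array. ITGAX, the alpha subunit of complement receptor 4, read 38.2, 57.5 and 53.3 in spheroids and 15.4, 16.1 and 16.2 in monolayers (log2 fold change 1.48, limma adjusted p = 0.00926), and without spheroid 3 the adjusted p was 0.0523. Both genes are also carried by leukocytes. PTPRC, the defining marker of leukocytes, averaged 13.1 in spheroids and 3.92 in monolayers at its brightest probe set, below the array medians. Its log2 fold change there was 1.83 (standard error 0.61, limma adjusted p = 0.106). The other PTPRC probe sets were dimmer, averaging 0.87 to 5.22 in spheroids and 1.05 to 4.81 in monolayers. They had negative log2 fold changes (-2.62, -1.13, -0.35 and -0.73). Of 6 measured leukocyte markers, 4 had every spheroid above every monolayer, as did 10.2% of all probe sets. The summed leukocyte list was 110 to 130.2 in spheroids and 57.9 to 74.9 in monolayers. Both groups are cultures of the NCI-H226 line, and the study states that its spheroids do not model the influence of immune cells. Which cells gave these signals was not tested. The partner ITGB2 and the receptor 3 subunit ITGAM had log2 fold changes of 0.12 and -0.07 (adjusted p = 0.835 and 0.919 by limma).

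**Figure D4:**
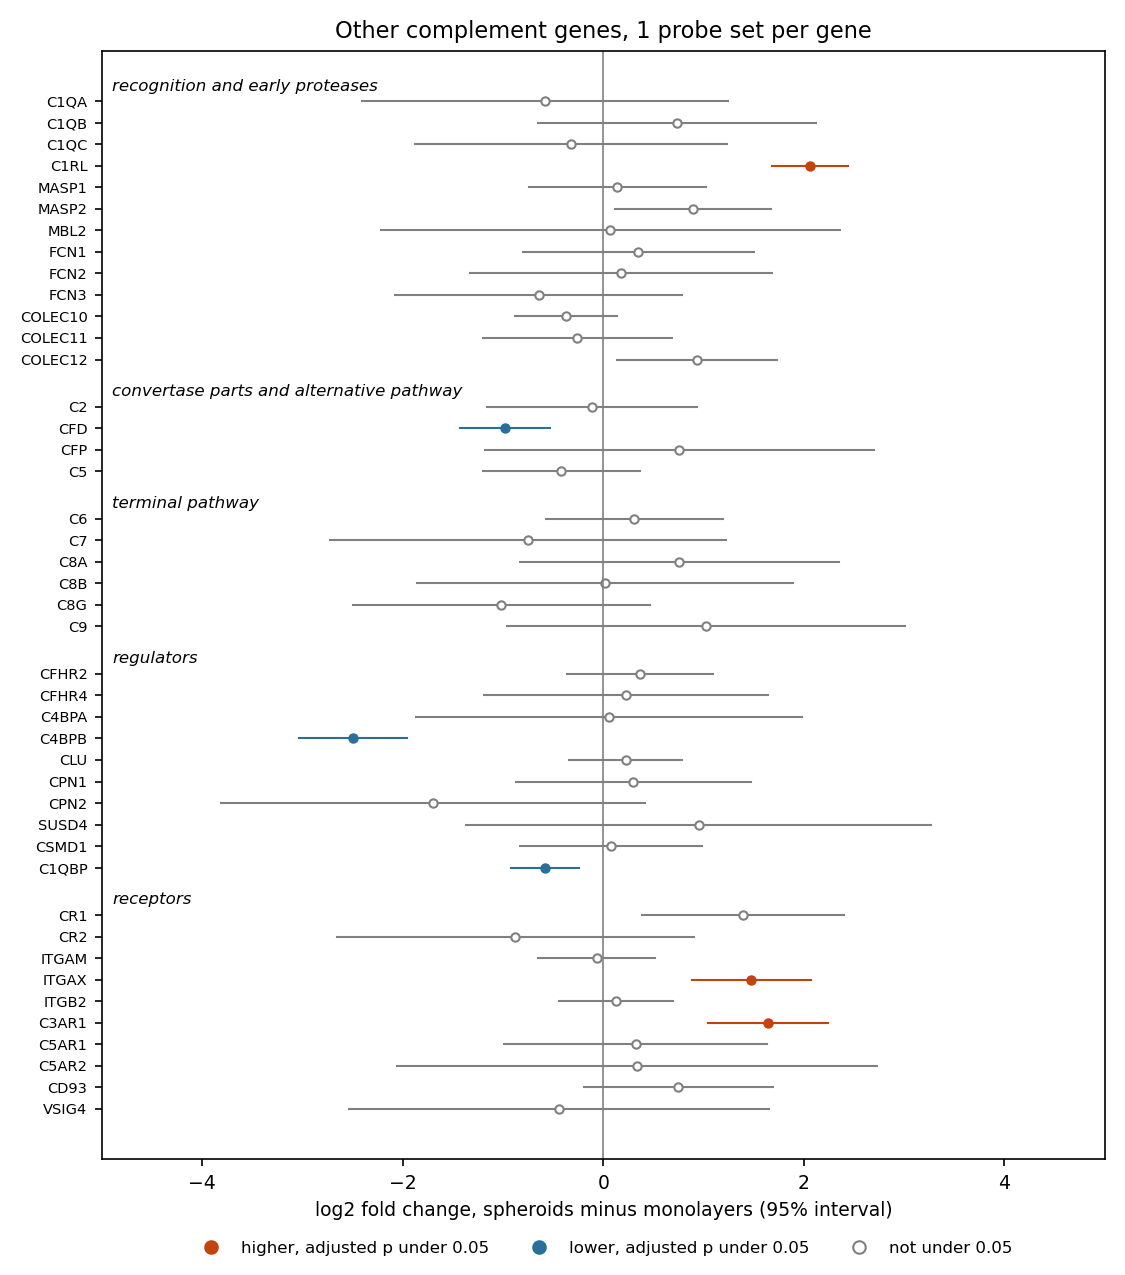
Log2 fold change, spheroids minus monolayers, with 95% intervals from limma, for the 43 other complement genes that have a probe set of their own, ordered by role. Filled orange points (C1RL, ITGAX, C3AR1) were higher and filled blue points (CFD, C4BPB, C1QBP) lower in spheroids; open points did not pass.

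Among cytokines and transcription factors known to induce complement genes, 14 of 15 were measured. At their brightest probe set 3 were higher, none lower and 11 not past limma. Over 19775 genes read in this way 3.89% were higher and 9.2% lower. None of the 3 calls held in limma without the trend, in the methods' t-test after adjustment, or with a floor at the 20th percentile (adjusted p = 0.0581 for IL6, 0.0577 for CEBPD and 0.0933 for LIF). IL6, which drives acute phase genes, read 746, 1552.5 and 2800 in spheroids and 86.0, 219.9 and 189.8 in monolayers (log2 fold change 3.13, standard error 0.48, limma adjusted p = 0.00486). CEBPD, a transcription factor of the acute phase, read 1770, 2000 and 2068.5 in spheroids and 1029, 601 and 558 in monolayers (log2 fold change 1.32, standard error 0.22, limma adjusted p = 0.00747). LIF, a cytokine related to IL6, had a log2 fold change of 1.14 (limma adjusted p = 0.0188) and did not pass without any one of spheroids 2 and 3 and monolayers 2 and 3 (adjusted p 0.0508 to 0.0777). IL1B had 1.22 (standard error 0.60, limma adjusted p = 0.278). CEBPD shared the order of CFB in monolayers, with monolayer 1 highest, and IL6 and IL1B had monolayer 1 lowest.

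The genes most like C3 and CFB across the 6 arrays were found among brighter probe sets with a single gene symbol. For C3 they were ASAH1 (acid ceramidase), LINC00957, FNDC3B, C1S and OLR1 (a receptor of oxidized lipoprotein), with Pearson correlations of 0.999, 0.999, 0.998, 0.997 and 0.996. For CFB they were LINC02035, LEPROT, SPIDR, CEBPD at a second probe set and BTN3A3, with 0.999, 0.999, 0.998, 0.998 and 0.998. At all of these probe sets every spheroid was above monolayer 1, and monolayer 1 was above the other monolayers. FNDC3B read 3171, 3179 and 3211 in spheroids and 2064, 1376 and 1206 in monolayers, while OLR1 varied more among spheroids, with 2321, 1327 and 1926, against 405, 85.2 and 47.0 in monolayers.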

How the data were processed

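Total RNA of NCI-H226 spheroids and monolayers was hybridized to Affymetrix arrays by the authors, 1 array per culture. The deposited values are MAS5 signal intensities, linear and with equal trimmed means across arrays; the normalization to median expression that the methods name is not visible in them, and detection calls are not used here. Precision is limited by having 3 arrays per group. The 62 control probe sets among 54675 were dropped. Signals were converted to log2, centred on each array's median and compared with limma 3.58.1 in R 4.3.3 (empirical Bayes with a mean-variance trend), without floor or filter. Groups come from the sample titles. Genes were named through the platform annotation, updated by Entrez ID: 41091 tested probe sets have 1 symbol, 1801 several and 11721 none. Named genes were all members, every called gene of the complement list, its 6 brightest uncalled genes, called inducers and the 5 genes most correlated with C3 and with CFB. The members, lists and tests were chosen with earlier results of these data known, and CFB and C4BPB are also among the genes the study selected on these arrays. KRT5, CALB2, IL1A, IL1B, IRF1, COL3A1, KDR, APOA1, LUM, ALB, the C1q chains, C4BPA and PTPRC were named after their values were seen. So were the 6 motifs. The pipeline was tested on simulated data. Alternatives were other scalings, a floor at the 20th percentile, a level filter, limma without trend, the methods' t-test, a replicate block and leaving out arrays; leaving out replicate 1 of both groups was added after the values were seen.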

Additional observations from a re-analysis of the deposited data

How the results depend on the processing

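The count of member probe sets called, 4, became 1 (CFB) with a floor at the 20th percentile, 0 in limma without the trend, and 0 in the methods' t-test after adjustment (4 without it); it ranged from 1 to 7 when 1 array was left out and was 8 without replicate 1 of both groups. The count of 6 other complement genes became 2 in limma without the trend and 3 in the adjusted methods' t-test, and ranged from 4 to 5 with 1 array left out. The median of the membrane regulators ranged from 0.11 to 0.45 with 1 array left out and was 0.52 without replicate 1 of both groups; those of the activating components ranged from 1.22 to 1.99 and those of the fluid regulators from 0.30 to 1.65. The log2 fold change of CD59 turned positive as deposited (0.13), after quantile normalization (0.025), and without spheroid 1 (0.0024), spheroid 2 (0.046), monolayer 2 (0.025) or monolayer 3 (0.038), with a range of -0.12 to 0.046 over the arrays left out. The cause of these shifts was not tested. Over all tested probe sets the deviations of same-numbered arrays had low correlations (0.09, -0.01 and 0.02), and the main fit took no pairs. Replicate 1 minus the mean of the other 2 was 4.63 in monolayers and 1.21 in spheroids for CFI. It was 4.19 and 1.80 for KRT5, but 0.45 and -0.29 for CD55. The correlations over all probe sets therefore do not decide whether the numbers pair the arrays for single genes. With a replicate block the standard error of CFI was 0.59, against 1.10 in the main fit. C1R passed with the block (log2 fold change 1.45, standard error 0.34, limma adjusted p = 0.0247), and 6 member probe sets and 5 other complement genes were called.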
